A study of Drosophila melanogaster with 6 samples.

Results

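The translation initiation factor genes examined here are all gene identifiers whose FlyBase symbol starts with eIF and a digit. There were 44 of them among 17559 identifiers counted, and all 44 such symbols in the name table were found. RNA was sequenced from pools of 100 whole Drosophila melanogaster embryos at 20 to 22 hours after egg laying, close to hatching. The mutants carried lola-O, labelled as a knockout of isoform O of the transcription factor gene lola, over the deficiency Df(2R)ED2076 (3 samples). In the controls the chromosome over that deficiency was wild type (3 samples), so both groups had a single copy of the genes it removes. The mutation is a single allele seen over a single deficiency, and whole embryos mix all tissues. The labels name no cross or collection for a sample, and p-values here cover the spread among these samples only, and part of it may be technical.

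Initiation places a ribosome at the start codon of an mRNA. The cap-binding protein eIF4E, the scaffold eIF4G and the RNA helicase eIF4A bind the capped end of the mRNA, while eIF2 brings the initiator tRNA to the small ribosomal subunit, helped by eIF1, eIF1A, eIF3 and eIF5. The exchange factor eIF2B recharges eIF2 with GTP, and phosphorylation of the alpha subunit of eIF2 blocks that step and lowers protein synthesis. Drosophila has several extra genes for eIF4E, eIF4G, eIF4H and some eIF3 subunits, some of them known for use in the testis. Under the naming rule the exon junction helicase CG7483 (synonym eIF4AIII), eEF5 (formerly eIF5A) and the poly(A)-binding protein gene pAbp were not members.

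The 6 libraries held 16217213 to 22759638 counts. The name tables used here do not hold FBgn0005630, which older FlyBase releases used for lola (background knowledge). It had 6807, 5817 and 6851 counts in mutants 1 to 3, against 8695, 9341 and 7562 in controls 1 to 3. Its fold change was -0.24 on the log2 scale (SE 0.029, adjusted p = 2.73e-10 by edgeR). That count sums all isoforms and does not check the genotype. Markers of neurons, glia, muscle, trachea and hemocytes were present, whereas the 8 yolk and eggshell genes were below 1 CPM (counts scaled to library size by TMM) in every library. Some tissue markers were lower in the mutants. The summed level of 4 hemocyte markers, of which 3 fell, was 253.1 to 254.8 CPM in the mutants, against 287.2 to 294.1 CPM in the controls. That of 4 muscle markers, of which 2 fell and 1 rose, was 17380 to 17830 CPM in the mutants, against 19770 to 20360 CPM in the controls. For 3 midgut markers, of which 2 fell and 1 rose, the sums were 420.0 to 442.1 CPM in the mutants, against 519.7 to 549.6 CPM in the controls. All 3 neuron markers fell, with sums of 754.4 to 800.4 CPM in the mutants, against 850.2 to 867.7 CPM in the controls. Of the fat body markers only apolpp was above 1 CPM, at -0.136. With a correction for transcript length none of the neuron markers passed, 1 hemocyte and 1 muscle marker were lower, and apolpp turned and was called higher, at 0.0717. All 3 midgut markers kept their calls with it, GATAe at 0.345, alphaTry at -0.803 and betaTry at -0.251. Of 8 germ cell and maternal markers 1, tud, fell. Sums of glia and trachea markers overlapped between the groups, but alrm (glia) was called higher at 0.133 and trh (trachea) lower at -0.161. Of 4 epidermis and cuticle markers 2 rose and 1 fell. With the length correction the calls of tud and of these epidermis and cuticle markers held, and those of alrm and trh were lost. In whole embryos fewer cells of a type and less RNA per cell cannot be told apart, and the part of these shifts in the results on initiation factors was not tested.

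Most of the tested initiation factor genes were called higher in the lola-O mutants, by small amounts, and none was called lower. Of the 35 members that passed the filter on low counts, 21 rose and 14 did not pass edgeR's quasi-likelihood test at an adjusted p of 0.05. The 9 members below that filter are given further on and are not covered by these calls. Over all 10312 genes tested, 39.7% were called, 20.2% higher and 19.5% lower. Genes with many counts are called more often, and each tested member had a mean of at least 21.4 CPM. Among the 5374 tested genes at or above that level, 29.0% were called higher and 28.1% lower, or 57.1% in all. The same shares are the background for the counts by complex below. The members' count, 21 of 35, was therefore near the background for genes of such abundance, while all of their calls were in 1 direction. The count of 0 lower was also 0 at an unadjusted p below 0.05, with DESeq2 and with limma-voom. The median change on the log2 scale was 0.105 for the 35 members, beside 0.00102 for all tested genes. The highest value without a correction for transcript length was that of eIF3j, 1.23-fold higher, and with it that of eIF4H1, 1.26-fold higher.

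**Figure D1:**
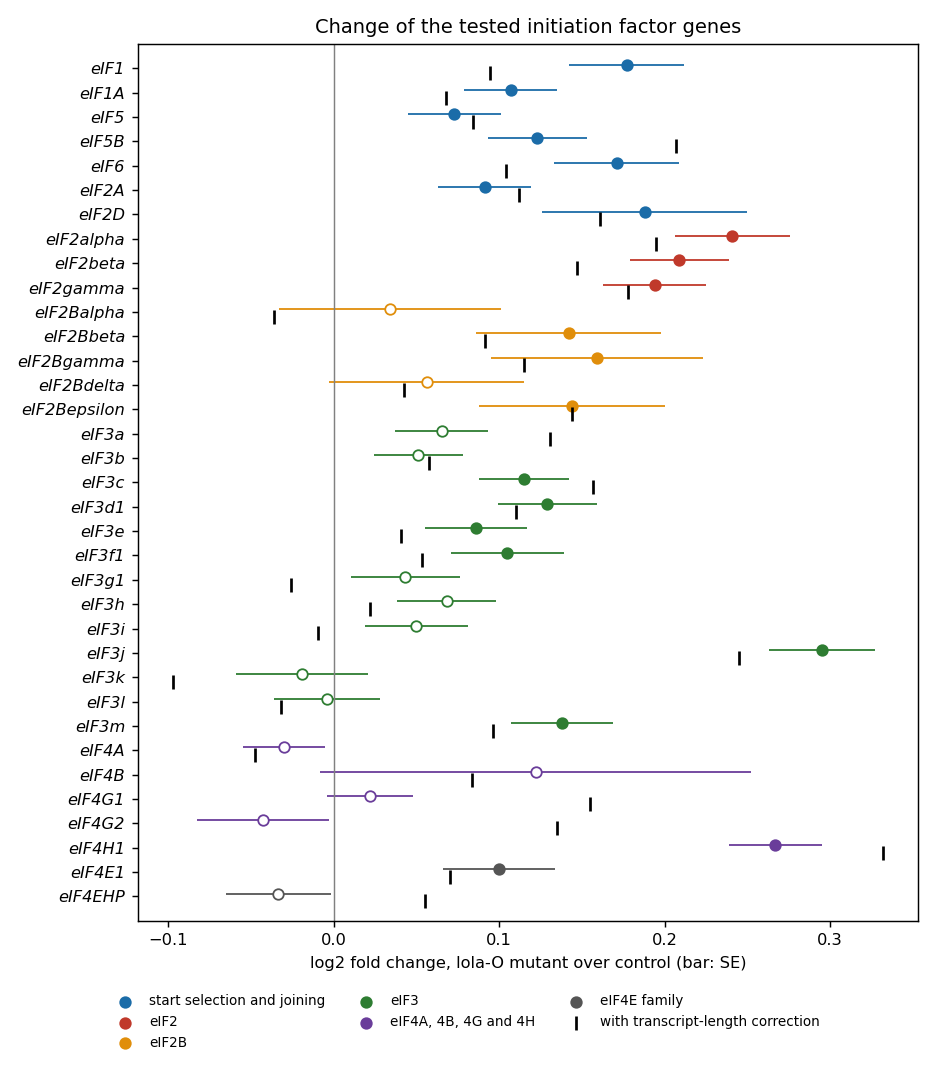
Log2 fold change of the 35 tested initiation factor genes, lola-O mutant over control, with SE bars, coloured by complex. Filled circles passed edgeR and open circles did not. Black ticks give the value after the transcript-length correction. The eIF2 subunits lie at 0.19 to 0.24, and eIF3j and eIF4H1 lie farthest to the right before the correction.

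As a share of all counts, the 44 genes took 1.01%, 0.993% and 0.997% in mutants 1 to 3, against 0.960%, 0.954% and 0.980% in controls 1 to 3. All 3 mutants were above all 3 controls. Of the 35 tested members, 21 had CPM higher in each mutant than in each control and 0 had the reverse, beside 24.1% and 23.7% of all tested genes (47.8% in all). These shares were not computed for the genes at or above 21.4 CPM. Relative to the mean of the controls, values per library spanned 93.1% to 124.5% in the mutants, against 82.0% to 119.3% in the controls. Both control extremes came from eIF4B.

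**Figure D2:**
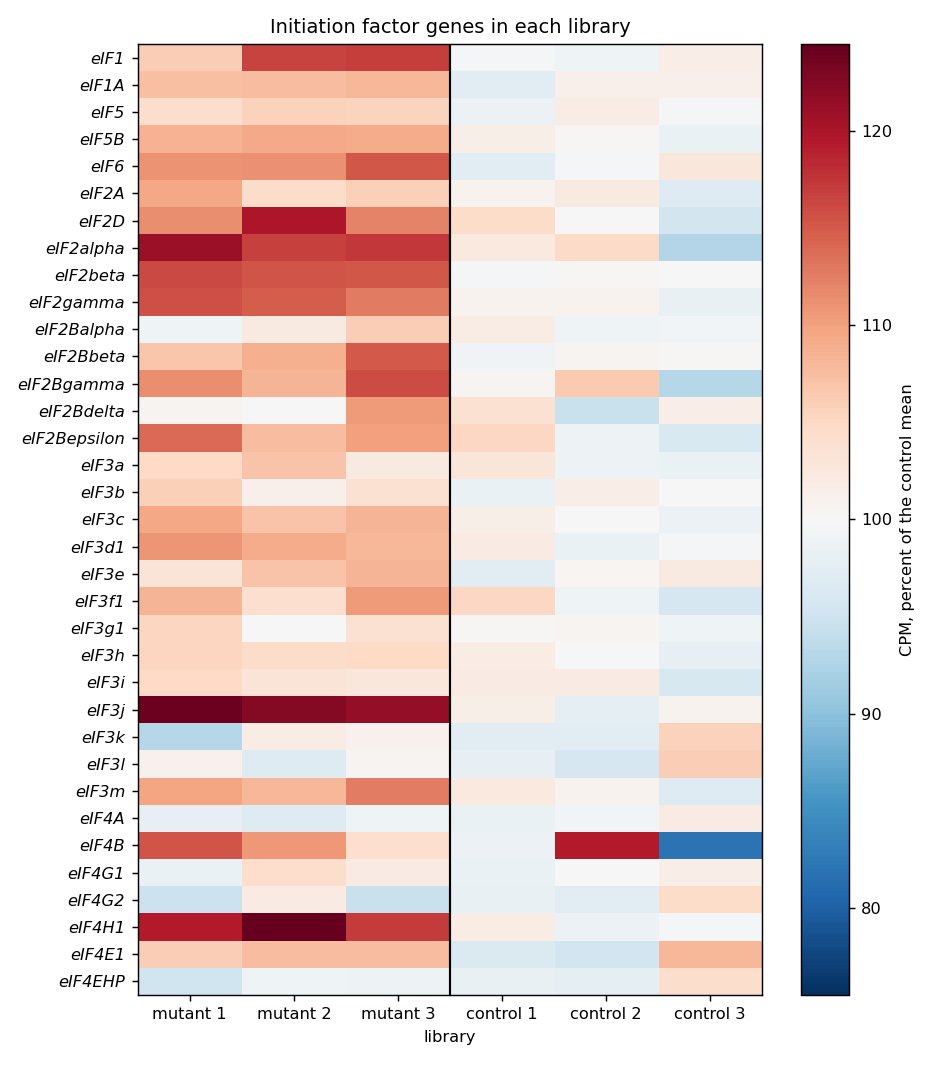
CPM of the 35 tested members in each library as a percentage of the control mean; rows are genes and columns are libraries, mutants left of the line and controls right. Most mutant cells are red. eIF4B spans 82.0% to 119.3% within the controls.

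Because changes can follow transcript length in such libraries, the fit was repeated with a correction that removes the trend of each library on length. The members' longest transcripts had a median of 1793 bases, and those of all tested genes 2001 bases. With the correction, 19 members were higher, 0 were lower and the median was 0.0946, beside 18.8% called higher and 13.4% called lower over all genes (32.2% in all, or 1942 higher and 1380 lower, against 2087 and 2006 without the correction). Of these 19, 16 had also been called without the correction. No corrected share was computed for the genes at or above 21.4 CPM. The calls of eIF2Bbeta, eIF2Bgamma, eIF3e, eIF3f1 and eIF4E1 were lost, and eIF3a, eIF4G1 and eIF4G2 passed with the correction and not without it.

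The factors of start-codon selection and subunit joining rose in all 7 cases. eIF1A (FBgn0026250, 3R, 18274665 to 18283005), which sits in the A site of the small subunit and was the most abundant of the 7 per kilobase, had 416.6, 416.8 and 419.4 CPM in mutants 1 to 3, against 377.8, 392.9 and 392.7 CPM in controls 1 to 3. The groups did not overlap, and its log2 fold change was 0.107 (SE 0.028, adjusted p = 0.00125 by edgeR). eIF1, which keeps the scanning ribosome from stopping at wrong codons, rose by 0.177, and eIF5, the GTPase activator of eIF2, by 0.073. eIF5B, the GTPase of subunit joining, rose by 0.123 and eIF6, which keeps free large subunits apart from small ones, by 0.171. eIF2A, an alternative tRNA-delivering factor, rose by 0.0913. eIF5 was not called without mutant 2 (log2 fold change 0.0629 to 0.09 over the alternatives), mutant 3 or control 1, nor by DESeq2 or without the low-count filter, and eIF2A was not called without mutant 1.

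eIF2D, a factor of non-canonical initiation and ribosome recycling, had 27.48, 29.56 and 27.67 CPM in mutants 1 to 3, against 25.77, 24.69 and 23.57 CPM in controls 1 to 3. It rose by 0.188 (SE 0.062, adjusted p = 0.0106 by edgeR), and lost its call without mutant 2 or control 3 and with DESeq2. Its exons overlap those of Pglym78 on the other strand, a glycolytic gene at 284.7 ± 5.91 CPM in the mutants, against 261.9 ± 9.9 CPM in the controls (SD, n = 3 each) that itself rose by 0.121. DENR, which with MCTS1 forms a pair related to eIF2D and promotes reinitiation in Drosophila, had 30.33, 29.56 and 29.45 CPM in mutants 1 to 3, against 22.49, 24.21 and 24.35 CPM in controls 1 to 3. All mutants were above all controls, and DENR rose by 0.332 (SE 0.061, adjusted p = 6.71e-06 by edgeR).

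All 3 subunit genes of eIF2 rose, by 0.194 to 0.241 on the log2 scale. eIF2alpha (FBgn0261609, X, 16445176 to 16446993, minus strand), the subunit that stress kinases phosphorylate, had 168.7, 162.5 and 163.2 CPM in mutants 1 to 3, against 142.5, 145.8 and 129.3 CPM in controls 1 to 3. Each mutant was above each control, and the gene was 1.18-fold higher, a log2 fold change of 0.241 (SE 0.035, adjusted p = 4.76e-08 by edgeR). eIF2beta (FBgn0004926, 3L, 12525093 to 12526731), which binds eIF5 and eIF2B, had 241.2, 239.8 and 239.3 CPM in the mutants, against 206.6, 208.4 and 208.0 CPM in the controls. The replicates lay within 2 CPM of each other in both groups, and the log2 fold change was 0.209 (SE 0.030, adjusted p = 3.56e-08 by edgeR). The GTP-binding subunit gene eIF2gamma had 230.9 ± 3.24 CPM in the mutants, against 201.8 ± 3.31 CPM in the controls (n = 3 each, SD), and rose by 0.194 (SE 0.031, adjusted p = 3.20e-07 by edgeR). The 3 calls held in each of the 16 alternatives. Around eIF2beta, ver, a telomere-capping gene that overlaps it on the other strand, was called higher at 0.67 (SE 0.25, adjusted p = 0.0305 by edgeR). The level of ver was low, at 1.793 ± 0.153 CPM in the mutants, against 1.122 ± 0.0978 CPM in the controls (SD, n = 3 each). Of the 7 other tested genes within 10 kb of eIF2beta, nst, Pmm2 and CG4069 were called higher at 0.187, 0.297 and 0.30 and 4 did not pass. eIF2gamma shares exon sequence with Su(var)3-9, a heterochromatin gene on the same strand that had a log2 fold change of -0.0337 and did not pass.

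The genes of the exchange factor eIF2B had much lower RNA levels than those of its substrate eIF2. The mean level of its 5 subunit genes, in CPM per kilobase of the longest transcript, was 18.17, 18.12 and 19.18 in mutants 1 to 3, against 17.48, 17.19 and 16.91 in controls 1 to 3. The mean level of the eIF2 subunit genes on that scale was 7.82 times that of eIF2B in the mutants, against 7.24 times in the controls. Of the 5, eIF2Bbeta, eIF2Bgamma and the catalytic subunit gene eIF2Bepsilon rose by 0.142, 0.159 and 0.144, and eIF2Balpha and eIF2Bdelta had 0.0341 and 0.0563 without passing. eIF2Bbeta, the most abundant per kilobase, had 32.42, 33.00 and 34.93 CPM in mutants 1 to 3, against 30.07, 30.56 and 30.41 CPM in controls 1 to 3. The 3 calls were near the threshold, with edgeR adjusted p of 0.0335 to 0.0393. None of them passed DESeq2, and each was lost on leaving out at least 4 of the 6 libraries in turn, always including mutant 3 and control 3. All 5 eIF2B genes share exon sequence with genes on the other strand. Mtmr6 (at eIF2Bdelta) and CG8192 (at eIF2Bgamma) were called lower, at -0.165 and -0.298. CG2680 (at eIF2Bbeta) and mip130 (at eIF2Bepsilon) did not pass, and CG42557 and CG42558 (at eIF2Balpha) had 0.0 CPM. In the controls Mtmr6 had 47.35 CPM, against 30.29 CPM for eIF2Bdelta. The part of these overlaps in the values was not tested.

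The genes of eIF3, the large scaffold that joins the small subunit to the other factors, were split. Of 16 genes 13 were tested, 6 rose and 7 did not pass. Among all tested genes at or above 21.4 CPM, 29.0% were called higher and 28.1% lower. The median over the 12 main subunit genes, without eIF3j and the paralogues eIF3d2, eIF3f2 and eIF3g2, was 0.0668 on the log2 scale, and their levels in the controls lay within a 2.2-fold range, from 102.8 CPM per kilobase for eIF3k to 225.8 for eIF3b. eIF3b, a core subunit gene, had 612.9, 586.1 and 601.0 CPM in mutants 1 to 3, against 569.8, 588.8 and 579.0 CPM in controls 1 to 3. The groups overlapped and the gene did not pass (log2 fold change 0.0511, SE 0.027, adjusted p = 0.127 by edgeR).

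The core subunit gene eIF3c rose by 0.115, eIF3d1, whose product contacts the mRNA cap in human cells, by 0.129, and eIF3m by 0.138, and these 3 calls held in all 16 alternatives. eIF3e rose by 0.086 and eIF3f1, whose groups overlapped, by 0.105. The call of eIF3e was lost without mutant 2, mutant 3 or control 1 and with DESeq2, and that of eIF3f1 without mutant 3 or control 3. The largest core gene, eIF3a, had 0.0652 and an edgeR adjusted p of 0.0533, and passed in 8 of 16 alternatives, among them those without mutant 3 or control 1. eIF3g1, eIF3h and eIF3i had 0.0432, 0.0683 and 0.0499 without passing. eIF3k and eIF3l, which bind each other at the edge of the complex, had the lowest values of the complex at -0.0191 (SE 0.040) and -0.00417 (SE 0.032).

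eIF3j (FBgn0027619, 2R, 9968929 to 9970897, plus strand), which encodes a loosely attached subunit, had the highest value of the 13. It had 186.2, 184.1 and 182.6 CPM in mutants 1 to 3, against 152.4, 146.7 and 151.7 CPM in controls 1 to 3. The groups were far apart, and the log2 fold change of 0.295 (SE 0.032, adjusted p = 5.64e-12 by edgeR) stood at the 90.9th percentile of all tested genes. The call held in each of the 16 alternatives, between 0.244 and 0.305. Its midpoint lies 0.543 Mb from that of lola, on the chromosome arm that differs between the groups by design. Within 10 kb, CG12134, CG1418 and Pdrg1 rose too, by 0.304, 0.716 and 0.591, and the pair-rule gene eve had -0.43 and did not pass (adjusted p = 0.29 by edgeR). Within 1 Mb of lola, 47.4% of 213 tested genes were called, 27.2% higher and 20.2% lower, beside 43.3%, 21.0% and 22.3% on the whole arm. The part of sequence differences between the second chromosomes in the value of eIF3j was not tested.

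The helicase and scaffold genes of the cap complex mostly did not pass. eIF4A (FBgn0001942, 2L, 5981764 to 5985909) was by far the most abundant member per kilobase, at 899.6, 890.8 and 908.6 CPM per kilobase in mutants 1 to 3, against 904.3, 913.2 and 938.4 in controls 1 to 3. The groups overlapped, and the log2 fold change was -0.030 (SE 0.025, adjusted p = 0.351 by edgeR). eIF4G1, the main scaffold, had 899.9, 953.7 and 933.6 CPM in mutants 1 to 3, against 899.8, 916.0 and 929.4 CPM in controls 1 to 3, with 0.0218 (SE 0.026, adjusted p = 0.549 by edgeR). Its transcript of 6335 bases is among the longest of the members, and with the length correction it had 0.155 (adjusted p = 3.04e-07 by edgeR). eIF4G2, the paralogue needed in spermatocytes, had 82.9, 89.37 and 82.81 CPM in mutants 1 to 3, against 85.92, 85.23 and 91.46 CPM in controls 1 to 3. Its log2 fold change was -0.0426 (adjusted p = 0.42 by edgeR) and 0.135 with the length correction (adjusted p = 0.00315 by edgeR).

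The 2 helicase cofactor genes tested differed from each other in precision. eIF4H1 (FBgn0262734, X, 16448665 to 16454972, plus strand), which stimulates eIF4A, had 449.4, 468.2 and 440.7 CPM in mutants 1 to 3, against 383.0, 370.5 and 374.9 CPM in controls 1 to 3. It was 20.3% higher, with a log2 fold change of 0.267 (SE 0.028, adjusted p = 2.59e-12 by edgeR), or 0.332 with the length correction, and the call held in all 16 alternatives. eIF4B, a related RNA-binding cofactor, had 29.26, 28.06 and 26.43 CPM in mutants 1 to 3, against 25.03, 30.29 and 20.82 CPM in controls 1 to 3. Its log2 fold change of 0.122 (SE 0.13, adjusted p = 0.506 by edgeR) ran from 0.00956 to 0.278 over the alternatives and passed only without control 2.

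eIF4H1 and eIF2alpha, which rose by 0.267 and 0.241, are neighbours on the X, head to head and 1672 bases apart. CG34015, which lies between them, had a log2 fold change of 0.0316, and rngo, whose exons overlap eIF2alpha on the other strand, had 0.121. Cdc50 and hang, the other tested genes within 10 kb of eIF2alpha, had 0.0388 and -0.0455. None of these 4 neighbours passed edgeR (adjusted p of 0.0972 or more). Of all tested genes on the X, 36.5% were called, 19.5% higher and 17.0% lower.

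The genes of the eIF4E family had very unequal RNA levels. eIF4E1 (FBgn0015218, 3L, 9399618 to 9402460), the main cap-binding protein gene, had 211.3, 214.2 and 214.2 CPM in mutants 1 to 3, against 192.3, 190.1 and 215.5 CPM in controls 1 to 3. Control 3 was above all mutants. The gene rose by 0.10 (SE 0.034, adjusted p = 0.0166 by edgeR), and the call was lost without mutant 2, mutant 3, control 1 or control 2, with DESeq2 and with the length correction. eIF4EHP, a cap-binding protein that represses chosen mRNAs such as that of caudal, had 204.2, 212.4 and 211.8 CPM in mutants 1 to 3, against 210.5, 209.3 and 223.7 CPM in controls 1 to 3. It did not pass, with a log2 fold change of -0.0334 (SE 0.032, adjusted p = 0.431 by edgeR), or 0.0553 with the length correction. Its exons overlap those of the synaptic gene Syx1A on the same strand, which had -0.185 and fell.

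The other 5 genes of the family summed to at most 0.879 CPM in a library. eIF4E3, known from male germ cells, had 4, 4 and 5 counts in mutants 1 to 3, against 10, 11 and 6 in controls 1 to 3. Its summed counts per total were 0.528 times those of the controls (95% exact interval 0.25 to 1.06, counting error only). eIF4E6 had 2, 0 and 1 counts in the mutants, against 6, 7 and 1 in the controls. Its ratio per total counts was 0.235 (95% exact interval 0.043 to 0.843, counting error only). eIF4E5 had 1 count in the mutants, against 3 in the controls, eIF4E7 had 0 and 2, and eIF4E4 had none in any library. At these depths a count of 0 leaves room for 3 counts, or 0.132 to 0.185 CPM before TMM scaling.

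The paralogues of other factors were as low. eIF3f2 had 2, 2 and 4 counts in mutants 1 to 3, against 7, 8 and 7 in controls 1 to 3, a ratio of 0.399 per total counts (95% exact interval 0.15 to 0.931, counting error only). eIF4H2 had 1 count in each group, eIF3g2 had 1 in the mutants, against 0 in the controls, and eIF3d2 had none. The 9 genes below the filter are thus all paralogues whose partner had at least 137.5 CPM in the controls, and with no filter none of the 7 that could be fitted passed edgeR (adjusted p of 0.128 or more). Of 7 testis marker genes, 6 were also below 1 CPM in every library.

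**Figure D3:**
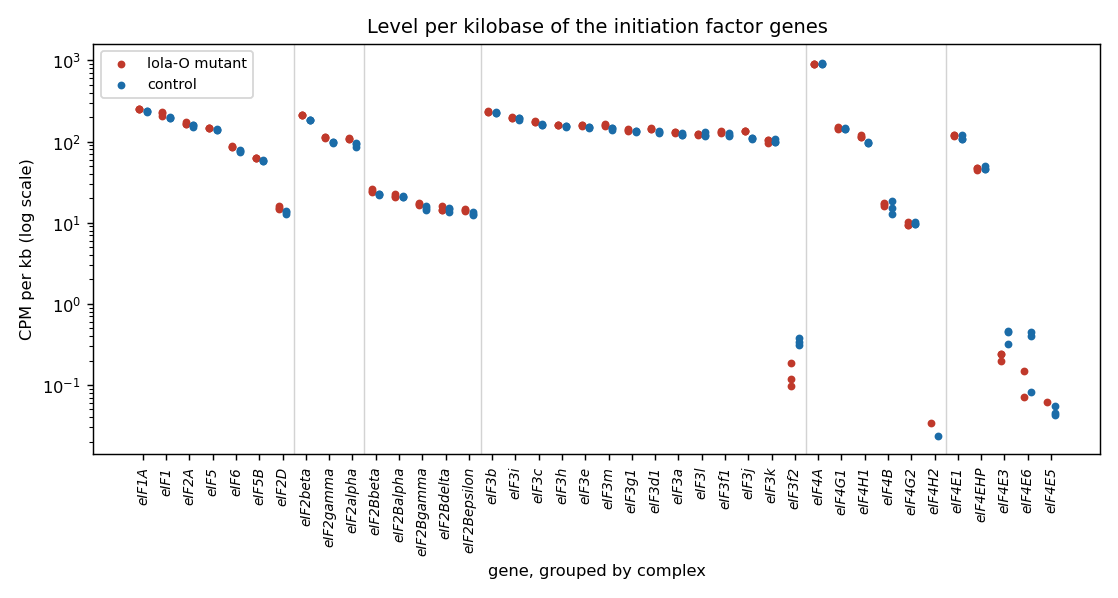
Level of 40 initiation factor genes in CPM per kilobase of the longest transcript (log axis), grouped by complex, with 3 mutant libraries left and 3 control libraries right at each gene. Libraries at 0 are not drawn, nor are 4 genes that had no counts in at least 1 group (eIF3d2, eIF3g2, eIF4E4 and eIF4E7). eIF4A stands highest, eIF2B lies near 20 and below, and the low paralogues lie under 1.

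Ratios of paralogues within a library do not depend on library size, and 5 pairs had at least 3 counts in every library. eIF4EHP had 96.65%, 99.15% and 98.87% of the counts of eIF4E1 in mutants 1 to 3, against 109.5%, 110.1% and 103.8% in controls 1 to 3. CG7483, the helicase of the exon junction complex, had 2.623%, 2.404% and 2.440% of the counts of eIF4A in the mutants, against 2.056%, 2.179% and 2.184% in the controls. eIF4E3 had 0.0963%, 0.117% and 0.115% of the counts of eIF4E1 in the mutants, against 0.241%, 0.255% and 0.156% in the controls. These ratios are not corrected for transcript length: with the correction eIF4EHP (4539 bases) and eIF4E1 (1793 bases) had log2 fold changes of 0.0553 and 0.0701. In the 3 pairs the groups did not overlap, with differences in log2 ratio of -0.134, 0.218 and -0.962. Each had p = 0.1 in an exact two-sided permutation test, the smallest that 3 against 3 samples allow, or 0.167 adjusted over the 5 pairs. By CPM, groups also did not overlap for 47.8% of all tested genes taken singly, and no such share was computed for ratios. The eIF4E3 ratio rests on 4 to 11 counts of eIF4E3 per library. For eIF4G2 over eIF4G1 the groups overlapped with a difference of -0.0638, and for eIF2D over DENR with -0.137 (exact permutation p = 0.2 for each, 0.2 adjusted).

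Regulators of initiation went both ways, over a range of -0.627 to 0.332 on the log2 scale. There were 23 tested, of which 11 fell, 5 rose and 7 did not pass, beside 19.5% lower and 20.2% higher over all tested genes, and the median was -0.0902 on the log2 scale. At or above 21.4 CPM, where most of the 23 lay, 28.1% of tested genes were called lower and 29.0% higher. The 4 genes with the lowest values were Paip2, Lk6, Thor and Pdcd4. Thor, the 4E-BP that blocks eIF4E from eIF4G, had 138.4, 140.1 and 143.1 CPM in mutants 1 to 3, against 185.4, 186.9 and 198.9 CPM in controls 1 to 3. It had a log2 fold change of -0.436 (SE 0.033, adjusted p = 2.54e-18 by edgeR). Lk6, the kinase of eIF4E, had 492.0, 488.9 and 457.2 CPM in the mutants, against 651.6, 657.9 and 646.2 CPM in the controls, a change of -0.444 (adjusted p = 2.89e-22 by edgeR).

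Paip2, which takes poly(A)-binding protein off the mRNA, had 49.72, 54.86 and 51.63 CPM in mutants 1 to 3, against 78.66, 77.29 and 85.35 CPM in controls 1 to 3. Its log2 fold change was -0.627 (SE 0.045, adjusted p = 1.23e-19 by edgeR). Pdcd4, known in mammals as an inhibitor of eIF4A, had 163.5, 170.3 and 167.0 CPM in the mutants, against 219.8, 213.9 and 218.0 CPM in the controls, a change of -0.380 (adjusted p = 1.44e-16 by edgeR). The RNA-binding protein gene larp fell by 0.251 (adjusted p = 1.06e-11 by edgeR). In all 5 genes each mutant was below each control, as in 12 of the 23 tested regulators and 23.7% of all tested genes. The 5 are among the genes picked for the smallest adjusted p, so their separation adds no support.

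pAbp, whose product binds the poly(A) tail and eIF4G and is the target of Paip2, rose instead. It had 2855, 2970 and 2810 CPM in mutants 1 to 3, against 2494, 2430 and 2559 CPM in controls 1 to 3, a log2 fold change of 0.207 (SE 0.025, adjusted p = 1.63e-10 by edgeR). crc, the Drosophila ATF4 that is translated when eIF2alpha is phosphorylated, had 574.5, 581.5 and 592.1 CPM in the mutants, against 601.1, 612.6 and 628.6 CPM in the controls, and fell by 0.0754 (adjusted p = 0.0195 by edgeR). The other called genes of the list are named after their values were seen. The kinases of eIF2alpha went opposite ways, with PEK at 0.165 and Gcn2 at -0.167, and in the TOR pathway Akt fell by 0.133, rictor by 0.138 and Rheb by 0.109. mxt, an eIF4E-binding protein gene, fell by 0.276, whereas the helicase gene bel rose by 0.140 and MCTS1, the partner of DENR, by 0.180 (edgeR adjusted p of 0.0294 or less for all 8).

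With the length correction, Thor, Lk6, Paip2, Pdcd4, larp and crc were lower and pAbp higher as before, at -0.516, -0.312, -0.648, -0.333, -0.0868, -0.0716 and 0.271. Gcn2, Akt, rictor and MCTS1, at -0.0458, -0.0344, 0.00216 and 0.125, no longer passed. The list then had 6 genes higher and 9 lower. cup had no count, and Tor, S6k, S6kL and vas were not analysed here.

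**Figure D4:**
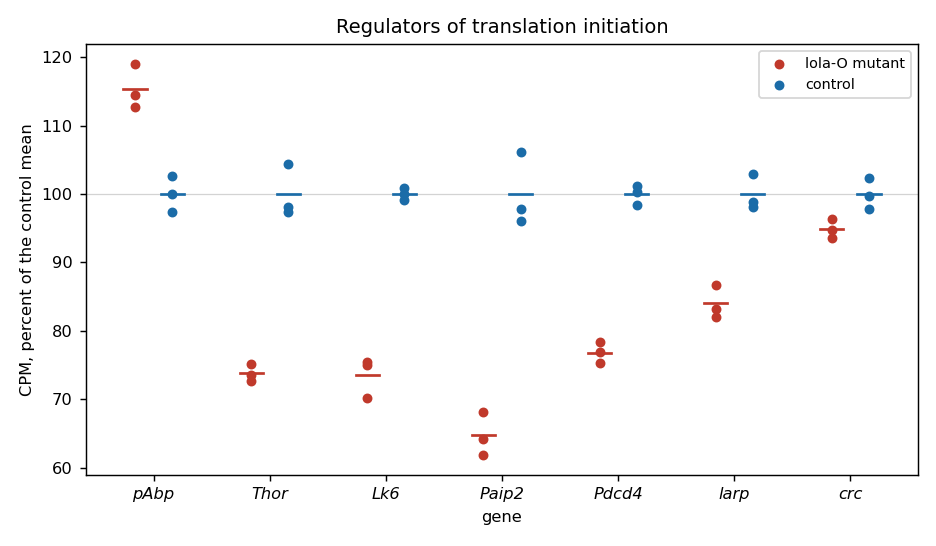
CPM of 7 regulators of initiation as a percentage of the control mean, with 3 mutant libraries left and 3 control libraries right for each gene; short lines are means. Mutants lie at 112.7% to 119.1% for pAbp and at 61.8% to 78.4% for Thor, Lk6, Paip2 and Pdcd4.

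Genes of the later steps of translation also rose where they passed. Of 12 tested genes of elongation, termination and recycling, 6 rose, 0 fell and 6 did not pass, beside 20.2% higher and 19.5% lower over all tested genes. At or above 21.4 CPM, where most of the 12 lay, the shares were 29.0% and 28.1%. The median of the 12 was 0.103 on the log2 scale. The exchange factor gene eEF1delta had 269.9, 268.0 and 278.4 CPM in mutants 1 to 3, against 220.8, 233.2 and 213.2 CPM in controls 1 to 3, and rose by 0.290 (SE 0.031, adjusted p = 5.67e-12 by edgeR). nero, the enzyme that completes hypusine on eIF5A, rose by 0.308 and the release factor gene eRF3 by 0.181. eEF1gamma rose by 0.119, the rescue factor gene HBS1 by 0.182 and eEF1beta by 0.0666, all with edgeR adjusted p of 0.0444 or less. With the length correction eEF1beta had -0.00647 and did not pass, and eEF2, the translocase, was called higher at 0.0578. eEF1alpha1 and eEF5 were not analysed here. Of the mitochondrial pair, mIF2 rose by 0.264 (adjusted p = 0.00356 by edgeR), and mIF3 had 0.126 and did not pass.

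Cytosolic ribosomal protein genes had nearly the same median as the initiation factors, 0.103 over 82 tested genes with 63 higher and 0 lower. Their transcripts are shorter, with a median of 877 bases, and with the length correction their median was 0.0387 with 21 higher and 0 lower. Over all tested genes, 20.2% were called higher and 19.5% lower, or 18.8% and 13.4% with the correction. Without the correction, the shares at or above 21.4 CPM, where most of these 82 genes lay, were 29.0% and 28.1%. RpL23, the ribosomal protein gene with the smallest p, had 1827, 1724 and 1803 CPM in mutants 1 to 3, against 1577, 1603 and 1499 CPM in controls 1 to 3. It rose by 0.195 (SE 0.026, adjusted p = 4.71e-09 by edgeR), and by 0.107 with the correction. Whether the 2 lists differ after the correction was not tested.

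**Figure D5:**
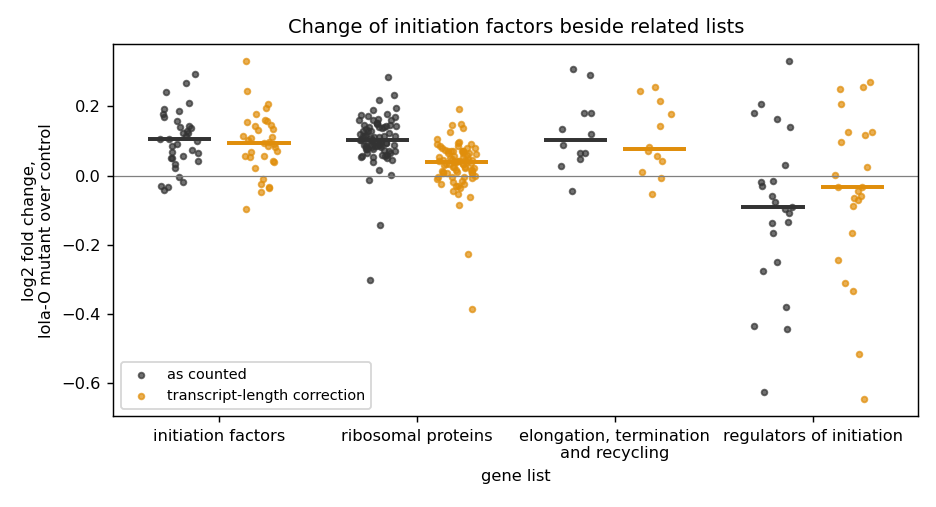
Log2 fold change, lola-O mutant over control, of each tested gene in 4 lists, as counted (black) and with the transcript-length correction (orange); bars are medians. The initiation factors have medians of 0.105 and 0.0946, the ribosomal proteins of 0.103 and 0.0387, and the regulators of -0.0902 and -0.0344.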

How the data were processed

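Per the labels, RNA from 1 µg total of each pool was made into polyA libraries with a directional kit. The authors deposited raw read counts for each FlyBase identifier, whole numbers with no normalization. Build BDGP6, bedtools 2.25.0, SAMtools 1.3.1, Subread 1.5.1 and STAR 2.5.2b are named per the submitters' processing notes. The sources used here give neither their roles nor the strand setting nor the handling of multiply mapped reads. Counts of similar paralogues and of the 14 members that overlap a gene on the other strand are therefore uncertain. Exons of eIF2gamma, eIF4A, eIF4EHP, eIF4G2 and eIF5 overlap an annotated gene on the same strand, so their counts are uncertain under any strand setting.

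Samples were grouped by title; mutant embryos are named in all 6 extract protocols, and each control is described as replicate 1. Symbols, positions and longest transcripts came from the Ensembl release 115 annotation BDGP6.54, which matched 17253 identifiers; 306 were unmatched. Replicates differed by more than sampling noise (chi-square per degree of freedom 1.94 to 6.136), so none was treated as a copy. edgeR 4.0.16 in R 4.3.3 was run over all genes with TMM, filterByExpr and robust quasi-likelihood fits of mutant against control, with two-sided tests and Benjamini-Hochberg adjustment. The SE is the log2 fold change over the square root of F. The length correction used, per sample, a loess trend (span 0.3) of log2 CPM deviation on log10 length as an offset. DESeq2 1.42.0 and voom in limma 3.58.1 were alternatives. The steps were tested on simulated data in which all genes shared a common dispersion. The spread among replicates here was less even, so that test does not check the calls made on these data. Members, lists and tests were chosen with earlier results of these data known. Called members with a change of at least 0.2 on the log2 scale, genes in paralogue pairs, the most abundant member of each complex and up to 6 genes of each related list with the smallest adjusted p were named with values; all other members were given in brief. No sequences were used here, and no promoter motif was searched.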

Additional observations from a re-analysis of the deposited data

How the results depend on the processing

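The count of members called higher was 14 with DESeq2, 15 to 19 with a sample left out, 18 with no low-count filter and 21 or 22 with limma-voom, other scalings, the stricter filter or without the 20 most abundant genes. Over all tested genes, those called higher numbered 1625 with DESeq2, 1826 to 1976 with a sample left out and 2042 of 14258 with no filter. The main fit had 2087 of 10312, and the other settings just named had 1993 to 2132. Of the 21 calls, 12 held in all 16 alternatives and 9 were lost in at least 1. No member was called lower in any of them, except that eIF3k (-0.0992) gave a count of 1 with the length correction and replicate block together. Replicate numbers did not pair the samples (correlations of same-numbered deviations 0.023, -0.028 and 0.043), and the replicate block alone gave 22 higher. Signs turned only for genes outside the 21 calls. With the length correction the genes that turned were eIF2Balpha (-0.0363, or -0.0382 with the replicate block), eIF3g1 (-0.0258 and -0.0263), eIF3i (-0.00926 and -0.00802), eIF4G2 (0.135 in both) and eIF4EHP (0.0553 and 0.0543). Of these, eIF4G2 was called higher with the length correction. eIF3l turned to 0.000367 with upper-quartile scaling. With a sample left out eIF3l ranged from -0.0289 to 0.0377, turning without mutant 2 (0.0154) or control 3 (0.0377), and eIF3k from -0.0392 to 0.022, turning without mutant 1 (0.022) or control 3 (0.0181). With the replicate block and length correction, 25 of 82 ribosomal protein genes were higher, beside 2002 of all 10312 tested genes. The causes were not tested.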
